A study of Mus musculus with 4 samples.

Results

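The transcripts described here are those of 10 genes of sphingosine-1-phosphate (S1P) signaling, namely the sphingosine kinases Sphk1 and Sphk2, the exporters Spns2 and Mfsd2b, the receptors S1pr1, S1pr2, S1pr3 and S1pr4, the phosphatase Sgpp1 and the lyase Sgpl1. They were taken by symbol from 55401 gene models, each matched 1 model, and all 10 were among the 14635 genes with enough counts to test. The genes were chosen by their place in the pathway with their TPM and fold changes in this comparison of Cpt1a KO and Control cells already known, so their differences between these groups are given as a description, with fold changes and intervals and without p-values. RNA-seq was performed on adult mouse bone marrow cells sorted after c-Kit enrichment, which the labels name LT-HSCs and the study gated as Lin- EPCR+ c-Kit+ CD150+ CD48-. In the study's text the cells that were sequenced are HSPCs, a wider class. Control mice (genotype WT in the labels, Cpt1a fl/fl in the study's methods) gave 2 libraries, and KO mice, in which Vav1-Cre deletes Cpt1a throughout the blood system and not in HSCs alone, gave 2 libraries. Both groups had a C57BL/6 background carrying CD45.2, with no treatment given in the labels, and the study used both sexes while the labels give no sex for these libraries. Neither the labels nor the methods say whether a library came from 1 mouse or from pooled mice, so the spread between replicates may be technical.

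S1P is a lipid signal made when a sphingosine kinase phosphorylates sphingosine, a product of ceramide breakdown. It leaves the cell through dedicated transporters and acts on G protein-coupled receptors, or is removed inside the cell by dephosphorylation or by irreversible cleavage by the lyase. S1P is abundant in blood and lymph and scarce in tissues, and this gradient is known to guide lymphocytes, and hematopoietic progenitors, out of the organs that hold them.

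Of the 10 genes, 2 were called lower in KO cells, Sphk1 and Mfsd2b, and 0 were called higher. The call required an adjusted p under 0.05 in edgeR's quasi-likelihood test over all genes, by which 0.212% of all tested genes were lower and 0.451% higher. Since the genes were listed with this contrast known, nothing is read from that count. In the same test at an unadjusted p under 0.05, 2 of the 10 were lower and 1 was higher, beside 4.61% lower and 5.81% higher of all genes tested. For the same reason nothing is read from this count. The log2 fold change was negative for 7 of the 10 and positive for 3, with a median of -0.10 beside 0.0087 over all genes tested.

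Total expected counts were 20589208 and 23291727 in the Control libraries and 34083144 and 33909777 in the KO libraries. Cpt1a, the targeted gene, which encodes the enzyme that commits long-chain fatty acids to mitochondrial import, stood at 37.0 and 35.6 TPM (a level scaled for transcript length and library size) in Control, and the KO libraries had 11.5 and 19.2 TPM. Its log2 fold change was -1.60 (SE = 0.15, adjusted p = 0.00695). Of the 12 LT-HSC markers listed, all were tested and 0 were called by edgeR. At an unadjusted p under 0.05, 2 of them were lower and 0 higher (4.61% and 5.81% of all genes). The 2 were Mecom (log2 fold change = -0.78) and Ctnnal1 (-0.74). The summed level of the 12 markers was 600 to 657 TPM in the 4 libraries. Kit, Gata2 and Hlf were among the most abundant, and Kit alone took 232 to 275 TPM of this sum. Transcripts of the neutrophil marker list were also present, with a summed level of 10927 and 7424 TPM in Control and 5876 and 5949 TPM in KO. Of this, Mpo took 1639 to 2959 TPM and S100a9, a protein of mature neutrophils, took 1453 to 2919 TPM. Whether these came from cells that the gate should remove was not tested. Control replicate 2 stood apart in its immediate early genes. All 9 listed were highest there, and of the 8 tested 0 were called, with Fos at 2579 CPM (counts scaled to library size, not to length) beside 111 CPM in Control replicate 1 and 104 and 70.2 CPM in KO. The share of all genes highest in that library was not counted.

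**Figure D1:**
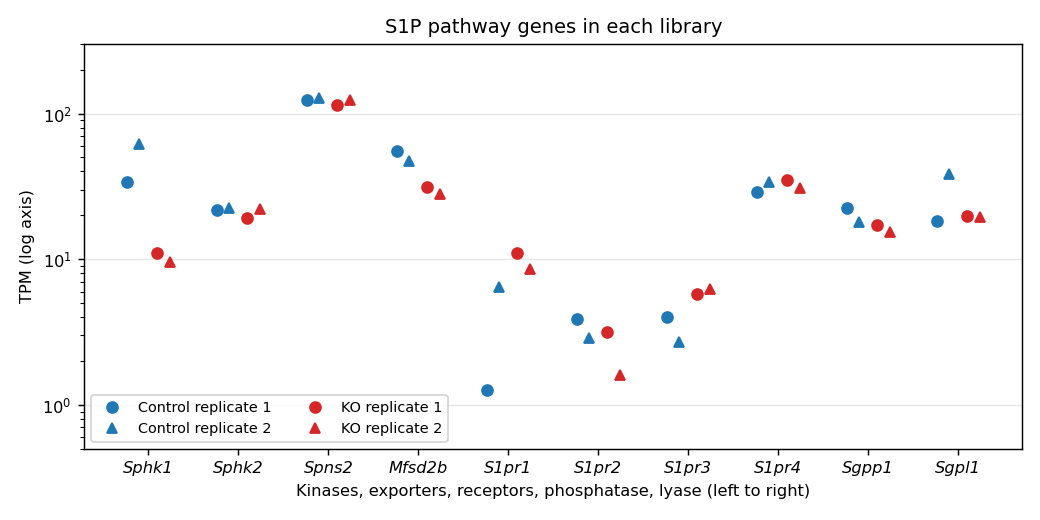
TPM of each of the 10 S1P pathway genes (log axis) in Control (blue) and KO (red) libraries; circles are replicate 1 and triangles replicate 2. Sphk1, Mfsd2b, Spns2 and Sgpp1 lie lower in both KO libraries than in either Control library, and S1pr1 and S1pr3 lie higher. With 2 libraries a group such separation is a description, and its share over all genes was not counted.

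Sphk1, one of the 2 kinases that make S1P, had the largest fold change of the 10 genes. Its level was 33.7 TPM in Control replicate 1 and 61.6 TPM in Control replicate 2, against 11.0 and 9.56 TPM in the KO libraries. Both KO libraries lay below both Control libraries. In normalized counts Sphk1 was at 43.5 ± 8.17 CPM in Control and 10.1 ± 0.42 CPM in KO (SD, n = 2 each), 4.33-fold lower in KO (log2 fold change = -2.11, SE = 0.25, 95% interval -2.70 to -1.53). Sphk1 lies on GRCm38 chromosome 11 from 116530925 to 116536674 on the plus strand, and 4.02% of its exon bases overlap Gm29292 on the other strand. A gene list that the study drew from its RNA-seq of these groups also holds Sphk1 and is no independent evidence of its direction. A figure legend of the study gives a larger n per group for its RNA-seq than the n = 2 used here.

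Sphk2, the kinase found mainly in the nucleus and other internal compartments, was at closer levels in the 2 groups. It was measured at 21.7 and 22.4 TPM in Control and 19.3 and 22.2 TPM in KO. The groups overlapped, and the log2 fold change was 0.00 with a 95% interval from -0.43 to 0.42, which does not reach the interval of Sphk1. Sphk2 shares 8.97% of its exon bases with Rpl18 and 13.0% with Dbp on the other strand, and no source used here says whether the counting used strand, so reads of these genes may not be fully separated.

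The makeup of the kinase transcripts also differed between the groups. Sphk1 was 60.9% and 73.3% of the summed kinase TPM in Control and 36.4% and 30.1% in KO. The 2 kinases together came to 55.4 and 84.0 TPM in Control and 30.3 and 31.8 TPM in KO. Sphk1 was the more abundant kinase in both Control libraries and Sphk2 in both KO libraries.

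Mfsd2b, the transporter that releases S1P from red cells and platelets, was the second gene called. It was at 55.7 and 47.5 TPM in Control and at 31.1 and 28.1 TPM in KO. The groups did not overlap. Its normalized counts were 99.8 ± 8.37 CPM in Control and 52.6 ± 0.18 CPM in KO (SD, n = 2 each), 1.90-fold lower in KO (log2 fold change = -0.92, SE = 0.14, 95% interval -1.25 to -0.60). Mfsd2b lies on chromosome 12 from 4862440 to 4874359 on the minus strand, with no exon overlap to another gene.

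Spns2, the S1P exporter best known from endothelial cells, was the most abundant of the 10 genes in every library. Its level was 124 and 128 TPM in Control and 114 and 123 TPM in KO. Both KO values were below both Control values in TPM, but in CPM the groups overlapped, and the log2 fold change was -0.10 (SE = 0.12, 95% interval -0.38 to 0.19). Of 5 endothelial markers, Tie1, which hematopoietic stem cells also express, was at 19.5 to 31.5 TPM, Stab2 was at 6.27 TPM in KO replicate 2 and at 0 in the other libraries, and Cdh5, which defines endothelial cells, was at 0 to 0.85 TPM. As a share of the summed exporter TPM, Mfsd2b was 31.0% and 27.0% in Control and 21.4% and 18.6% in KO.

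**Figure D2:**
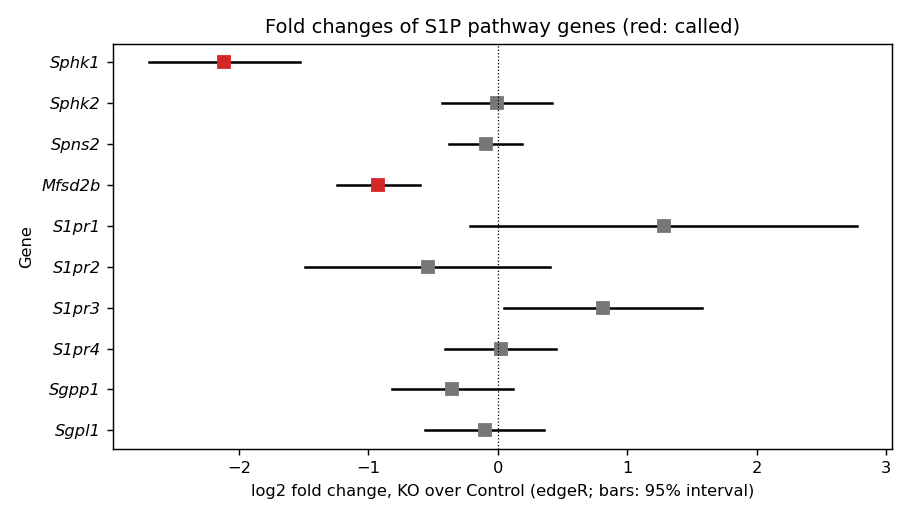
Log2 fold change of each gene in KO over Control (squares) with its 95% interval (bars) from the edgeR fit; red squares are called genes. The intervals of Sphk1 and Mfsd2b lie wholly below 0, that of S1pr3 starts just above 0 (0.05), and that of S1pr1 is the widest (-0.22 to 2.77). The intervals are not adjusted for the number of genes tested.

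Sequence before a transcription start of each gene called, and of Spns2 as the exporter that was not, is shown because Sphk1 and Mfsd2b were lower in the same libraries. Each is the 250 bases before a RefSeq transcription start (GRCm38.p6), read along the gene's strand and free of annotated exons. The Sphk1 and Spns2 windows lie inside the span that GENCODE gives the gene, since other transcripts start further upstream. Sphk1 has 5 RefSeq starts, and the fourth is shown, the only one whose window holds no exon base (chr11:116532194-116532443, plus strand), followed by Mfsd2b (chr12:4874360-4874609, minus strand) and Spns2 (chr11:72475028-72475277, minus strand). Capitals mark matches, on either strand, to a GATA motif (AGATAA and AGATAG, as well as TGATAA and also TGATAG) or to a CACCC box (CCNCNCCC), the motifs of the GATA and Krüppel-like factors, and no match of one overlaps a match of the other. The pattern CCNCNCCC does not require the letters CACCC. It takes in stretches such as CCACGCCC and leaves some CACCC letters unmarked.
Sphk1: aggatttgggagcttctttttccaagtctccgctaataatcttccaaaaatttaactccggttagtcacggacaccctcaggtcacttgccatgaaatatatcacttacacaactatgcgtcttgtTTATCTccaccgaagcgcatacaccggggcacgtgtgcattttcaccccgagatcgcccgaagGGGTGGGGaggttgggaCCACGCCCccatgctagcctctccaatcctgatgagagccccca
Mfsd2b: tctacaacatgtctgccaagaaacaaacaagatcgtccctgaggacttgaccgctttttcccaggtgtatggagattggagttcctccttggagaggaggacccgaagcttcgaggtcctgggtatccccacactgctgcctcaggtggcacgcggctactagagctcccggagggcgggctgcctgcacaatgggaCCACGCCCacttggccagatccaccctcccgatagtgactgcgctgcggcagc
Spns2: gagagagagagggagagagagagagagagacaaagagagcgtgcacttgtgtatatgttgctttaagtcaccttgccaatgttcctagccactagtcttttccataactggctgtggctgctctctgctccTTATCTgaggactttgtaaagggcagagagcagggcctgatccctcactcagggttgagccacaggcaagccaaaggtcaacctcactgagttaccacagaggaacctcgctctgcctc
The Sphk1 window shown holds 1 GATA match and 2 CACCC matches, that of Mfsd2b holds 0 and 1, and that of Spns2 holds 1 and 0. RefSeq windows were found for 9 of the 10 genes (not S1pr1), 14 windows in all, of which 3 hold a GATA match and 11 a CACCC match, beside 26.5% and 45.9% of 32851 promoter windows of the same length. Of the 5 Sphk1 windows, 3 hold no GATA match and the other 2 hold the same one. The 5 overlap in part, so the 14 are not separate observations. The comparison with all windows took no account of base content. The GC content of the 14 ran from 38.8% (S1pr4) to 74.8% (Sgpl1), so nothing is read from these counts.

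The summed transcripts of the erythroid list were lower in the same libraries as Sphk1 and Mfsd2b. So were the sums of the neutrophil, megakaryocyte and platelet, T and NK cell, and monocyte and macrophage lists. Of 18 erythroid markers, 16 were tested, 9 were called lower and 0 higher (0.212% and 0.451% of all genes), and all 16 had a negative log2 fold change. Their summed level was 1629 and 1584 TPM in Control and 661 and 772 TPM in KO. Car2, the most abundant, was at 437 and 471 TPM in Control and 260 and 272 TPM in KO, and Alas2, which starts heme synthesis in red cell precursors, was at 0 in all 4 libraries. In bulk RNA, fewer cells of a type and less RNA per cell cannot be told apart, and the part of the erythroid transcripts in the levels of Sphk1 and Mfsd2b was not tested.

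Other lineages moved as well. All marker lists were chosen with earlier results of these data known, and 0.451% of all genes were called higher. The 9 B lineage markers were all called higher, with sums of 58.2 and 91.1 TPM in Control and 629 and 437 TPM in KO. Of 7 mast cell and basophil markers 4 were called higher, with sums of 87.6 and 42.2 TPM in Control and 357 and 440 TPM in KO. Of 8 neutrophil markers 1 was called lower (0.212% of all genes), and all 8 had a negative log2 fold change. At an unadjusted p under 0.05 in the edgeR test, 6 of the 8 were lower (4.61% of all genes). Of 8 megakaryocyte and platelet markers tested 0 were called, with sums of 199.95 and 169.53 TPM in Control and 140.0 and 117 TPM in KO. No member was called among the 7 monocyte and macrophage, 4 T and NK cell or 4 endothelial markers tested, and 1 of 3 stromal markers tested was higher (Pdgfrb). Their part in the levels of the S1P genes was not tested.

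Fits that leave out a library have 1 library in that group, which is assumed to vary like the 2 libraries of the other group. The calls of Sphk1 and Mfsd2b depended on the test more than their fold changes did. With RSEM's effective length as an offset 0 of the 10 genes were called lower (0.00683% of all genes), with log2 fold changes of -2.23 for Sphk1 and -0.82 for Mfsd2b, and limma on log2(TPM + 1) or log2(TPM + 0.1) called 0 (0% of all genes). Without KO replicate 1 neither was called (0.115% of all genes lower; -2.16 and -0.92), and without KO replicate 2 only Sphk1 was (0.165%). Without Control replicate 1 (0.893%) or Control replicate 2 (0.828%), and with DESeq2 (3.24%), both were called.

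Among the receptors, S1pr4, which couples mainly to Gi and is known from lymphoid and myeloid cells, had the highest level. It was at 28.8 and 34.1 TPM in Control and 35.2 and 30.6 TPM in KO. The groups overlapped (log2 fold change = 0.02, 95% interval -0.41 to 0.45). S1pr4 made up 75.8% and 73.9% of the summed TPM of the 4 receptors in Control and 63.9% and 65.0% in KO.

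S1pr1, the Gi-coupled receptor through which lymphocytes leave tissues along the S1P gradient, was the least steady of the 10 genes between the Control replicates (in KO it was S1pr2, at 1.92-fold in CPM). It was at 1.27 TPM in Control replicate 1, 6.48 TPM in Control replicate 2, and 11.0 and 8.57 TPM in the KO libraries. In Control replicate 1 this rested on 53 counts, or 2.56 CPM with an exact Poisson interval of 1.92 to 3.34, against 306 counts in Control replicate 2, so the 5.21-fold gap between the 2 Control libraries in CPM was larger than counting error. Both KO libraries lay above both Control libraries, and the gap between the Control libraries was larger than the gap between Control replicate 2 and either KO library. The log2 fold change was 1.28 (SE = 0.65, 95% interval -0.22 to 2.77), and S1pr1 was not called. Without Control replicate 2 it was 2.92, and S1pr1 was called higher with 1.48% of all genes, in a fit whose spread between replicates comes from the KO libraries alone. Without Control replicate 1 it was 0.54. As a share of receptor TPM, S1pr1 was 3.35% and 14.0% in Control and 19.9% and 18.2% in KO.

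S1pr3, which couples to Gi, Gq and G12/13 proteins, was higher in both KO libraries than in either Control library but was not called. Its level was 4.02 and 2.69 TPM in Control and 5.77 and 6.28 TPM in KO. On the log2 scale S1pr3 differed by 0.81 (SE = 0.33, 95% interval 0.05 to 1.57). S1pr2, which couples mainly to G12/13 and restrains migration, was at 3.88 and 2.86 TPM in Control and 3.16 and 1.61 TPM in KO. Its groups overlapped (log2 fold change = -0.54, 95% interval -1.49 to 0.40). The 4 receptors summed to 37.9 and 46.2 TPM in Control and 55.1 and 47.1 TPM in KO.

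The genes that remove S1P showed smaller differences. Sgpp1, a phosphatase of the endoplasmic reticulum that returns S1P to sphingosine, was at 22.6 and 17.9 TPM in Control and 17.2 and 15.4 TPM in KO. Both KO values were the lower ones, but the log2 fold change was -0.35 with a 95% interval from -0.82 to 0.12, and Sgpp1 was not called. Sgpl1, the lyase that ends S1P signaling irreversibly, was at 18.4 and 38.7 TPM in Control and 19.9 and 19.6 TPM in KO. Its groups overlapped, and its log2 fold change was -0.10 (95% interval -0.56 to 0.36).

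The high Sgpl1 level of Control replicate 2 was a matter of transcript length more than of counts. In CPM, Sgpl1 was at 42.1 and 52.8 in Control and 41.3 and 47.1 in KO, and the 2 Control libraries differed 1.26-fold. RSEM's mean transcript length of the gene, weighted by isoform, was 3429 and 2107 bases in Control and 3209 and 3601 bases in KO, so that the Control libraries differed 2.11-fold in TPM. GENCODE M21 gives the gene 10 transcripts of 421 to 4361 bases. Sphk1, with 16 transcripts of 522 to 4063 bases in GENCODE M21 and 17 in the deposited files, showed the same in a smaller measure, with lengths of 1806 and 1346 bases in Control and 1599 and 1678 bases in KO, and a gap between the Control libraries of 1.83-fold in TPM and 1.31-fold in CPM.

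**Figure D3:**
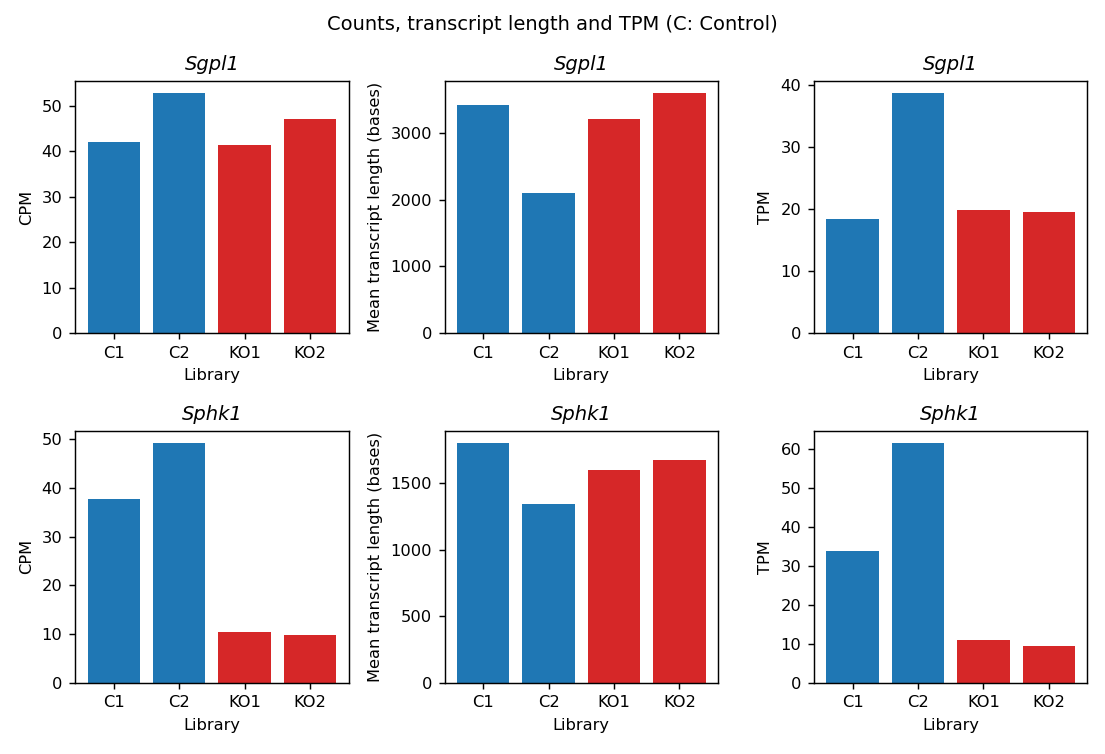
CPM, mean transcript length in bases and TPM (bars, all from 0) of Sgpl1 (upper row) and Sphk1 (lower row) in the Control (C, blue) and KO (red) libraries. In Control replicate 2 both genes have their shortest mean length, 2107 and 1346 bases, and their highest TPM.

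Ordered by mean TPM, the Control levels ran Spns2, Mfsd2b, Sphk1, S1pr4, Sgpl1, Sphk2, Sgpp1, S1pr1, S1pr2 and S1pr3. In this order the replicate ranges of neighbors overlapped except between Spns2 and Mfsd2b and between Sgpp1 and S1pr1. In KO the order was Spns2, S1pr4, Mfsd2b, Sphk2, Sgpl1, Sgpp1, Sphk1, S1pr1, S1pr3 and S1pr2. There the ranges overlapped only between S1pr4 and Mfsd2b, Sphk2 and Sgpl1, and Sphk1 and S1pr1. Sphk1 thus ranked 3 of 10 in Control, at 47.6 ± 19.7 TPM, and 7 of 10 in KO, at 10.3 ± 1.03 TPM (SD, n = 2 each).

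The wider sphingolipid pathway was examined in 4 further lists of 72 genes, of which 62 were tested. None was called in either direction by edgeR (lowest adjusted p = 0.296), and at an unadjusted p under 0.05 1 was higher and 1 was lower, beside 5.81% and 4.61% of all genes. Of the 62, 30 had a positive and 32 a negative log2 fold change, with a median of -0.0056. No count was found in any library for 8 of the 72, including the receptor S1pr5, the phosphatase Sgpp2 and the plasma S1P carrier Apom, where 3 counts would be 0.0880 to 0.146 CPM.

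Among 11 further genes of S1P handling, 8 were tested, and the 3 with the smallest p had negative log2 fold changes. Plpp2, a surface phosphatase that can dephosphorylate S1P outside the cell, was at 12.5 and 11.6 TPM in Control and 6.63 and 7.89 TPM in KO (log2 fold change = -0.80, adjusted p = 0.527). Plpp1, of the same family, was at 4.66 and 4.90 TPM in Control and 0.45 and 1.35 TPM in KO (log2 fold change = -2.36, adjusted p = 0.574), and without KO replicate 1 or 2 the log2 fold change was -1.73 or -3.45. The groups did not overlap for either gene, at 11 to 84 counts a library for Plpp1, and neither passed the test. Abcg2, a transporter that marks the side population of stem cells and has been linked to S1P export, was at 31.8 and 46.2 TPM in Control and 24.4 and 24.2 TPM in KO (log2 fold change = -0.46, adjusted p = 0.527).

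The supply of sphingosine gave no call among 17 tested of 22 genes (median log2 fold change -0.02). Cers2, the ceramide synthase for very long acyl chains, was at 154 and 136 TPM in Control and 126 and 129 TPM in KO (log2 fold change = -0.23, adjusted p = 0.561). Ormdl3, which holds back serine palmitoyltransferase, was at -0.45 on the log2 scale (adjusted p = 0.610), and the ceramide synthase Cers4 at -0.36 (adjusted p = 0.559). The direction of Cers4 turned with the unit, with 15.4 and 17.3 TPM in Control, 35.6 and 11.95 TPM in KO and a log2 fold change of 0.51 with the length offset. All 15 genes of complex sphingolipids were tested and none was called (median 0.03). Ugcg, which makes glucosylceramide, was at 24.2 and 24.5 TPM in Control and 31.95 and 30.63 TPM in KO (log2 fold change = 0.23, adjusted p = 0.644). Cert1, the ceramide transfer protein gene, was at 0.22 on the log2 scale (adjusted p = 0.676) and the sphingomyelinase gene Smpd2 at -0.63 (adjusted p = 0.556).

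**Figure D4:**
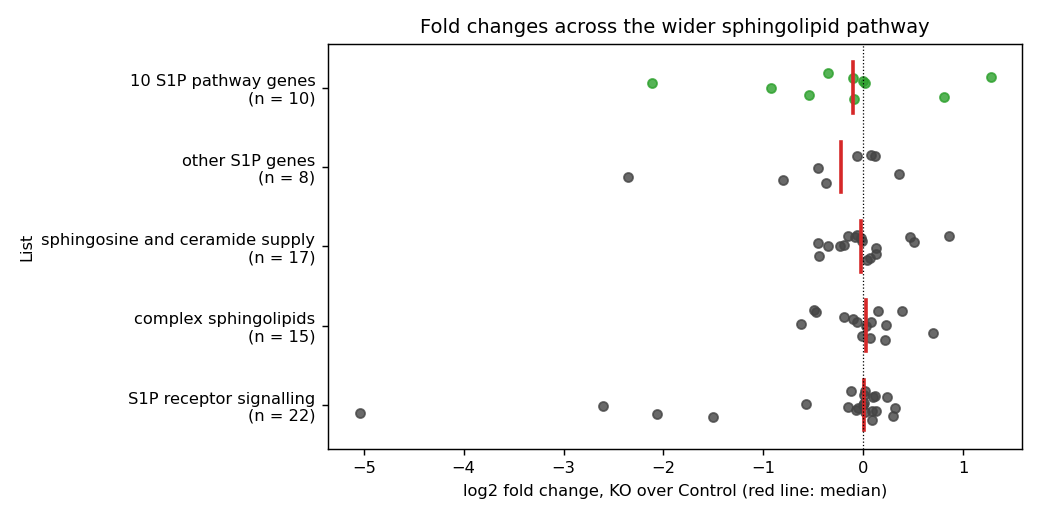
Log2 fold change in KO over Control of the 10 S1P pathway genes (green) and of the tested genes of the 4 further lists (gray, 1 point per gene, jittered vertically), with the median of each list as a red line. The medians lie between -0.22 and 0.03, and the 4 points below -1 in the receptor signaling list are Klf2, Rgs1, Cd69 and Rgs2.

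Downstream of the receptors, 22 of 24 genes were tested and 0 were called (median log2 fold change 0.01). Rac2, the small GTPase of blood cells through which Gi-coupled receptors drive migration, had normalized counts of 314 and 291 CPM in Control and 385 and 373 CPM in KO (log2 fold change = 0.32, adjusted p = 0.296), although its TPM groups overlapped. Arhgef12, a RhoA exchange factor driven by G12/13, was at 5.87 and 7.30 TPM in Control and 5.02 and 4.18 TPM in KO (log2 fold change = -0.57, adjusted p = 0.420). DESeq2 called Rac2 higher, with 3.95% of all genes, and Arhgef12 lower, and edgeR called neither.

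Of the 24 genes, 9 had their highest CPM in Control replicate 2, and 4 of these, Rgs1, Klf2, Cd69 and Rgs2, were there over 2 times the next library. Others did not, such as Rgs18, at 104 and 80.3 CPM in Control and 92.3 and 85.3 CPM in KO. The shares of all genes tested with either trait were not counted, so nothing is read from these counts. Rgs1, which dampens Gi signaling, was at 46.9 and 470 TPM in Control and 54.5 and 22.1 TPM in KO (log2 fold change = -2.61, adjusted p = 0.664). Klf2, Cd69, Rgs2 and Rgs18 were singled out after their values were seen. Klf2, a transcription factor that activates S1pr1, was at 3.19 and 132 TPM in Control and 1.41 and 2.82 TPM in KO, and Cd69, which draws S1PR1 from the cell surface, was at 15.7 and 113 TPM in Control and 18.0 and 16.2 TPM in KO. Rgs2 was at 42.1 and 224 TPM in Control and 54.9 and 46.2 TPM in KO. For each of these 4 genes the other 3 libraries were closer together. Without Control replicate 2 none of them was called, with log2 fold changes of -0.61 for Rgs1, -0.61 for Klf2, 0.23 for Cd69 and -0.11 for Rgs2.

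This library was also the one with high Fos, and of the 2 Control libraries it had the higher S1pr1. In the KO libraries S1pr1 was higher still, with Klf2, Cd69, Rgs1, Rgs2 and Fos near or below their values in Control replicate 1. Whether the state of Control replicate 2 bears on the level of S1pr1 was not tested. Without that library the log2 fold changes were -1.91 for Sphk1 and -1.01 for Mfsd2b.

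**Figure D5:**
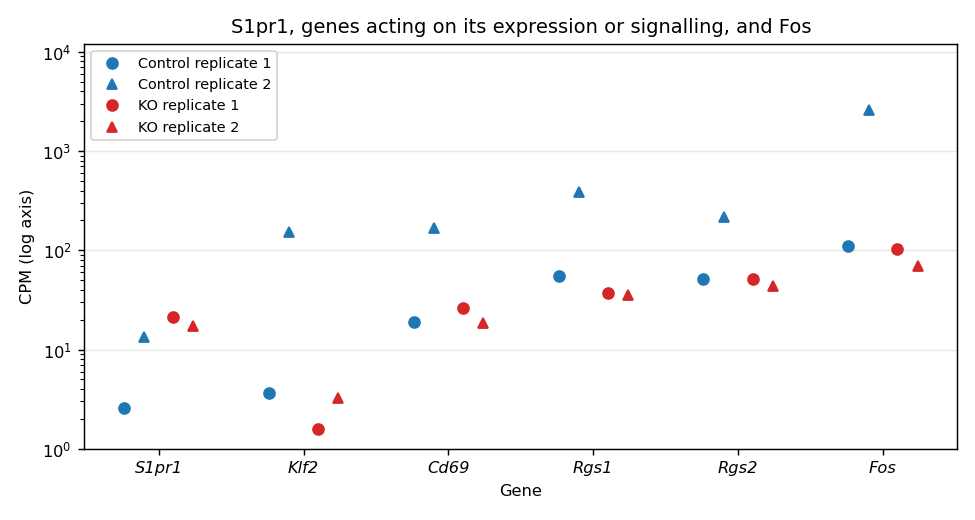
CPM (log axis) of S1pr1, of 4 genes of the receptor signaling list (Klf2, Cd69, Rgs1 and Rgs2), and of the immediate early gene Fos in Control (blue) and KO (red) libraries. Circles are replicate 1 and triangles replicate 2. Control replicate 2 is the highest library for every gene shown except S1pr1, where it lies above Control replicate 1 and below both KO libraries.

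The genes whose TPM pattern over the 4 libraries was most like that of Sphk1 were found by the root mean square difference of centered log2(TPM + 1) among 14635 genes. The nearest was Mogat2, an acyltransferase of diacylglycerol synthesis, at 5.21 and 11.7 TPM in Control and 1.14 and 0.97 TPM in KO (difference 0.0733). It was followed by 4930568A12Rik, Gcat, Gm18852 and Gm45925 (0.118 to 0.168), of which Gcat, a mitochondrial enzyme of threonine breakdown, was at 2.27 and 6.06 TPM in Control and at 0 in both KO libraries. With 4 libraries many genes can share a pattern, and the likeness is given as a description.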

How the data were processed

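Bone marrow cells were sorted into RNAlater. RNA was prepared with an RNeasy kit, and per the labels polyadenylated RNA was made into directional NEBNext Ultra II libraries, sequenced on an Illumina HiSeq per the methods. STAR, RSEM and the mm10 build stand in the submitters' processing notes, with no version given in the sources used here. The deposited unit tested was RSEM's expected count per gene, without normalization. TPM, also in the authors' files, is scaled for gene length and to the same sum in each library and was used for levels, and a transcript length.

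Symbols and positions came from GENCODE M21 (GRCm38), which named 55141 of the 55401 gene models. The other 260 took no more than 0.00577% of any library's counts. Expected counts were rounded and tested with edgeR 4.0.16 in R 4.3.3 (glmQLFit, robust, two-sided, genotype only, TMM factors 0.985 to 1.01, filterByExpr at a minimum count of 10), with Benjamini-Hochberg adjustment over 14635 genes. The SE is the absolute coefficient over the root of its F statistic. CPM values use TMM library sizes. DESeq2 1.42.0 and limma 3.58.1 were alternatives, as were another scaling, no filter, RSEM's effective length as an offset, its posterior mean counts, a replicate block and leaving out each library. Only the steps of the main edgeR fit were run on simulated data, and the alternatives were not. An exact permutation test of 1 gene cannot go below p = 0.333 with 2 libraries against 2, so the p-values rest on spread pooled over genes.

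Replicates differed beyond counting noise in 73.5% (Control) and 71.9% (KO) of genes, so no library was taken as another deposited anew, though they may still be technical repeats. The Poisson intervals and the floors describe counting error alone, as no molecular identifiers are given.

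The 10 genes and all lists were chosen with earlier results of these data known. The text names the 10, Cpt1a, the called genes or otherwise the 3 with the smallest p of each pathway list, at most 4 markers per list by mean TPM, and the 5 genes nearest Sphk1. Klf2, Cd69, Rgs2, Rgs18, Alas2, Cdh5, Mecom, Ctnnal1, the unexpressed genes and the immediate early genes were chosen after their values were seen. The promoter windows come from RefSeq (GRCm38.p6).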

Additional observations from a re-analysis of the deposited data

How the results depend on the processing

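With 2 libraries a group, the number of calls moved more than the fold changes. Over all genes, 66 were called higher and 31 lower. The counts were 613 and 503 with DESeq2, 111 and 85 with no filter, 3 and 1 with an offset for effective length, 5 and 0 by limma on log2(TPM + 1), 0 and 0 on log2(TPM + 0.1), and 24 to 238 and 18 to 144 when each library was left out. Of the 10 S1P genes, 2 were called lower in edgeR, 0 with the length offset, 0 with either limma fit and 0 to 2 when each library was left out, and 0 were called higher except 0 to 1 when each library was left out. Of the other pathway genes, 1 was called higher and 1 lower with DESeq2, and 0 to 4 lower when each library was left out, the 4 being Rgs1, Rgs2, Cd69 and Klf2 without Control replicate 1, which leaves the library where they were high as the only Control. A group left with 1 library is assumed to vary like the other group. Cpt1a kept its direction and lost its call with the length offset (log2 fold change = -1.26, adjusted p = 0.368) and with limma (-1.23, adjusted p = 0.425, and -1.28, adjusted p = 0.443), while its adjusted p stayed under 0.05 in the other alternatives run. Of 264 fold changes of named genes under the alternatives, 251 stayed on the same side of the threshold, 9 lost a call and 4 gained one, and none of the called values changed sign, while 9 values of genes that were not called did (Sphk2, S1pr4, Sgpl1, Spns2 and Cers4). The cause of these shifts was not tested. Control and KO libraries share replicate numbers, no source used here says whether these pair the libraries, and their deviations from the group means did not go together (r = -0.0239 across 14635 genes). With the replicate block 62 genes were called higher and 36 lower, and of the S1P genes 2 lower and 0 higher.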
